A study of Homo sapiens with 24 samples.

Results

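The polyadenylated RNA of CD33 knockout THP1 macrophages was compared with that of wild-type THP1 macrophages, both carrying a control vector. The comparison took the raw gene counts of the 6 CD33KO_shCTRL libraries and the 6 WT_shCTRL libraries, 12 of the 23 libraries analysed here, and compared them across every gene with enough counts, which left 13098 of 60617 gene identifiers. THP1 is a human monocytic leukaemia line that becomes adherent and macrophage-like under the phorbol ester PMA. CD33KO_shCTRL macrophages came from a CD33 knockout derivative of THP1 and WT_shCTRL macrophages from the unedited line. Both had been transduced with lentivirus carrying empty pLKO.1 (shCTRL), exposed to it for 24 hours, rested for 48 hours and selected in 1 µg/ml puromycin, then given 10 ng/ml PMA for 48 hours and left 48 hours without it. The remaining 2 groups of the series, CD33KO_shPTPN6 (5 libraries used here) and WT_shPTPN6 (6 libraries), differ from these in carrying a hairpin against PTPN6. The labels do not say whether the knockout line is 1 clone or a pool, where in CD33 the edit lies, or whether the 6 libraries of a group are separate cultures. A difference between the lines that is unrelated to CD33 therefore cannot be told apart from an effect of CD33, and p-values measure the spread between these libraries, which may be technical.

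CD33 (Siglec-3) is a sialic acid binding receptor of myeloid cells. When it engages sialylated glycans, Src family kinases phosphorylate tyrosines in its cytoplasmic inhibitory motifs, and these recruit the phosphatases SHP-1 (PTPN6) and SHP-2 (PTPN11), which dampen signals from activating receptors that work through TYROBP, FCER1G and SYK. In microglia and macrophages CD33 is best known as an Alzheimer's disease risk locus and as a brake on phagocytosis.

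Libraries were read at the 3' ends of polyadenylated RNA, so that a count does not grow with transcript length. Totals ran from 2048161 to 3749258 counts per library in CD33KO_shCTRL and from 4170191 to 5700712 in WT_shCTRL, so every knockout library was shallower. Levels below are in CPM, counts relative to the library total as scaled by TMM. Summed levels of cell type markers are instead relative to the library total without TMM scaling. TMM factors ran from 1.00 to 1.01 in CD33KO_shCTRL and from 1.04 to 1.06 in WT_shCTRL libraries. Where 3 values are given for a group they are the lowest, the median and the highest of its 6 libraries. Transcripts of the mitochondrial genome made up 6.53 to 7.13% of counts in knockout and 5.86 to 6.54% in wild-type libraries. Ribosomal protein transcripts took 4.46 to 4.73% in knockout and 6.17 to 7.26% in wild-type libraries. The first principal component of the 12 libraries separated the genotypes and held 73.3% of the variance, against 4.58% on the second, where CD33KO_shCTRL replicate 2 lay apart. By the count of genes at least 2-fold from the group median, replicate 2 of CD33KO_shCTRL and replicate 4 of WT_shCTRL departed most from their own groups. They had 211 and 28 of 10978 such genes, against 53 to 108 in the other knockout and 14 to 22 in the other wild-type libraries. The highest ribosomal protein share, 7.26%, was that of WT_shCTRL replicate 6. Of 12 macrophage and myeloid identity genes 7 were called lower in knockout, 5 of them at least 2-fold, and 3 higher, with a median log2 fold change of -0.86. CD33, the targeted gene, is 1 of the 12 and 1 of those 5. The summed level of the 12 ran from 2087 to 2271 CPM in knockout and from 2376 to 2747 CPM in wild-type libraries. CTSB, CD14 and TYROBP held most of that sum, and LYZ (lysozyme) was low in knockout libraries.

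**Figure D1:**
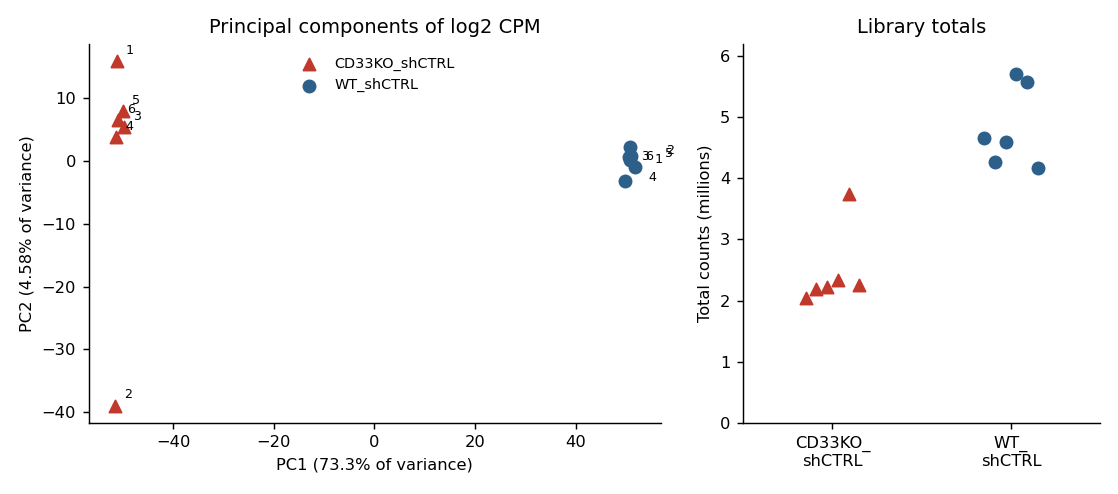
The 12 libraries on the first and second principal components of log2 CPM (left; knockout triangles, wild-type circles, labelled by replicate) and their total counts (right; points are libraries). The knockout libraries lie on one side of the first component and each holds fewer counts than every wild-type library.

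CD33 itself was checked first. In ascending order CD33 stood at 16.2, 18.3, 20.7, 21.0, 22.3 and 22.5 CPM in the 6 knockout libraries and at 39.7, 44.3, 45.2, 47.4, 47.6 and 48.5 CPM in the 6 wild-type libraries, so the groups did not overlap. Its group means were 20.2 ± 2.45 CPM in knockout and 45.5 ± 3.24 CPM in wild-type libraries (SD, n = 6 each), a fall of 55.6% by means (log2 fold change -1.16 ± 0.10 SE, edgeR quasi-likelihood adjusted p = 3.31e-19; two-sided exact permutation p = 0.00216, the smallest that 6 against 6 allow). The gene lies on chromosome 19 at 51225064 to 51243860 of GRCh38 on the plus strand. Counts at a 3' end outside an edit check nothing about the edit, and the CD33 transcripts that remained say nothing about the protein. Around CD33, the 50 nearest tested genes had a median log2 fold change of 0.32. PTPN6, which the control vector does not target, stood at 32.6, 37.5 and 44.1 CPM in knockout and 35.8, 45.3 and 52.4 CPM in wild-type libraries; the groups overlapped. Its log2 fold change was -0.23 ± 0.10 SE (edgeR adjusted p = 0.0372, exact permutation p = 0.0498). That call was lost when any 1 of 6 libraries was left out, replicates 1, 3 or 6 of CD33KO_shCTRL or 3, 4 or 6 of WT_shCTRL (edgeR adjusted p of 0.0554 to 0.0953). PTPN6 lies on the short arm of chromosome 12, where the 50 nearest tested genes had a median of -0.53, and the part of that shift in its own fall was not tested.

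At a Benjamini-Hochberg adjusted p under 0.05, 3711 genes (28.3% of those tested) were higher and 3717 (28.4%) were lower in knockout than in wild-type libraries, 56.7% in all. At least 2-fold changes were called for 1018 genes higher (7.77%) and 1037 lower (7.92%), and 10-fold changes for 158 higher and 88 lower. Knockout and wild-type libraries did not overlap for 4464 genes (34.1%). The median log2 fold change over all tested genes was -0.01. Because so many genes were called, the count of each gene group below stands against these shares. Below, rose and fell mean called, changes are log2 fold changes (knockout over wild type) with their SE after the ± sign, and the largest edgeR adjusted p among the 238 genes named as called was 0.0445. Apart from PTPN6, every gene given by its lowest, median and highest values had groups that did not overlap. In the plot of fold change against level, HSPG2 stands out among the large rises as the most abundant.

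**Figure D2:**
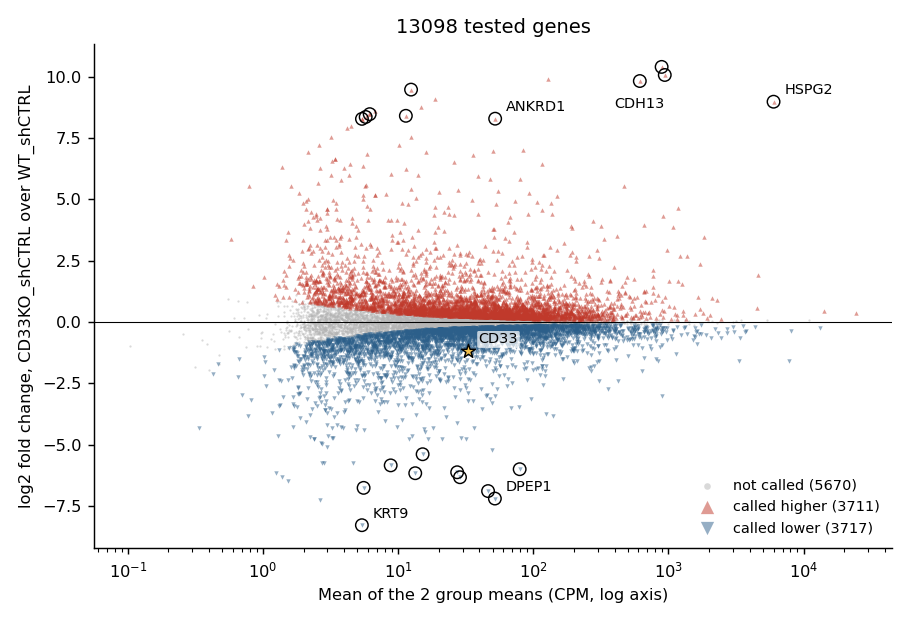
Log2 fold change (CD33KO_shCTRL over WT_shCTRL) against mean level of the 2 group means (CPM, log axis) for all 13098 tested genes. Triangles pointing up are called higher, triangles pointing down are called lower and grey points are not called. Circles mark the 10 largest called rises and the 10 largest called falls at 5 CPM or more, among genes with a symbol. The 3711 genes called higher and 3717 called lower lie above and below 0 over most of the range of levels, with CD33 marked by a star.

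Annotated exons of another gene overlap, on the other strand, those of SIGLEC7, NANS, CTSA, IRF1, RSAD2, TNFAIP3, IL16, PYCARD, GAS6, FTH1, FADS2, CD80, NRG4, CCND1 and RPL6, and on the same strand those of CD163 and FADS2. Whether counting used strand is not given in the sources used here, so their values may hold reads of the overlapping gene.

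The shifts were not even along the genome. Of 705 tested genes on chromosome 12, 410 fell and 75 rose, with a median of -0.40. Of 678 on chromosome 6, 298 rose and 170 fell, with a median of 0.17. Of 905 on chromosome 19, where CD33 lies, 349 rose and 140 fell, with a median of 0.16. In windows of 50 neighbouring tested genes (more in the last window of a chromosome), 10 of the 14 windows of chromosome 12 had a median below -0.3, against 13 of the 250 windows of the genome. In the window nearest the start of the short arm of chromosome 12 the median was -0.88 and 42 of 50 genes fell. On chromosome 6 the window with the highest median stood at 0.99, with 42 of 50 genes higher, whereas the 6 windows nearest its other end had medians of -0.22 to -0.11. On chromosome 19, 4 of 18 windows had a median above 0.3, the highest at 0.47. DNA copy number was not measured here. Where a gene below lies on chromosome 6 or 12, the median of its 50 neighbours is given beside its own change, and its part in that change was not tested. Of the other genes named on these chromosomes, the neighbour median was 0.46 for C2, 0.03 for GCLC, 0.43 for HLA-DQA1, 0.44 for HLA-DRB1, -0.17 for LYZ, -0.45 for OAS2, -0.46 for OAS3, -0.20 for RPS12, -0.13 for STAT2, -0.24 for TAAR8, -0.26 for TNFAIP3, -0.77 for TNFRSF1A and 0.31 for VEGFA. On chromosome 19 the median of the neighbours was -0.07 for CD22, 0.14 for SIGLEC11, 0.19 for SIGLEC16, 0.28 for SIGLEC9, 0.32 for SIGLEC7 and 0.34 for SIGLEC14, 0.18 for LILRB1 and 0.18 for LILRB2, and 0.07 for TYROBP.

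**Figure D3:**
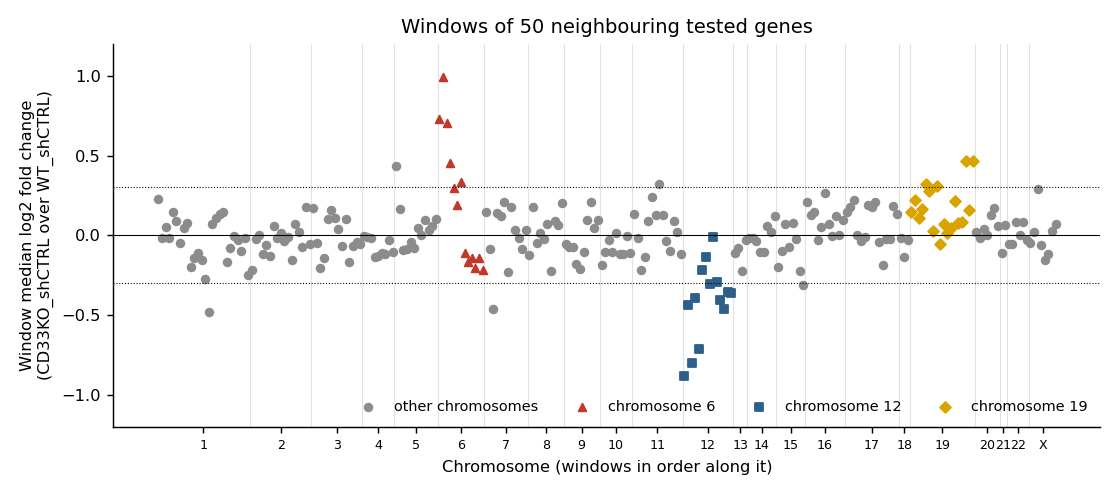
Median log2 fold change (CD33KO_shCTRL over WT_shCTRL) in windows of 50 neighbouring tested genes, each window 1 point, in chromosome order; windows of chromosomes 6, 12 and 19 are drawn as triangles, squares and diamonds. Most windows lie within 0.3 of 0, whereas 10 of 14 on chromosome 12 lie below -0.3.

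The other Siglecs also fell. All 8 of the other Siglec receptors with enough counts fell (of 14 listed), each at least 2-fold, with a median log2 fold change of -2.54. SIGLEC15, an activating-type Siglec that pairs with TYROBP, stood at 0.489, 1.22 and 2.20 CPM in knockout and 27.4, 30.7 and 32.6 CPM in wild-type libraries. CD22 stood at 4.25, 6.26 and 9.44 CPM in knockout and 56.8, 58.2 and 65.5 CPM in wild-type libraries. SIGLEC9, a close CD33 relative of monocytes, stood at 0.899, 1.46 and 4.58 CPM in knockout and 7.49, 9.33 and 11.2 CPM in wild-type libraries, and SIGLEC1, the macrophage sialoadhesin, stood at 4.13, 7.58 and 10.1 CPM in knockout and 36.7, 39.4 and 42.9 CPM in wild-type libraries. In each of these every knockout library lay below every wild-type library. The smallest fall was that of SIGLEC7 (-1.15 ± 0.43), which was not called without WT_shCTRL replicate 4 (edgeR adjusted p = 0.0563). SIGLEC14 and SIGLEC16 have near-identical paralogs, so reads may have been split between copies.

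Of 12 other inhibitory receptors tested, 6 fell and 3 rose. LILRB2, a receptor for MHC class I, had 1 count summed over the knockout and 43 over the wild-type libraries. LILRB4 changed by -2.20 ± 0.18 and LILRB1 by -1.52 ± 0.26; LAIR1, a collagen receptor, fell by 0.87. PECAM1, an adhesion receptor with inhibitory motifs, stood at 346, 367 and 389 CPM in knockout and 148, 162 and 171 CPM in wild-type libraries. SIRPA, the receptor for CD47, rose by 0.35. The LILRB genes are close paralogs. Among 13 phosphatases and adaptors that act below such receptors, 8 fell and 2 rose. INPP5D, which encodes the lipid phosphatase SHIP1, fell by 0.99 and the CD45 gene PTPRC by 0.85, while SOCS3 rose by 1.72. PTPN11, which overlaps RPL6 on the other strand, changed by -0.32 ± 0.09, with a neighbour median on chromosome 12 of -0.46.

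On the activating side, 11 of 17 kinases and adaptors fell and 5 rose. TYROBP, the adaptor of TREM2, stood at 329, 337 and 391 CPM in knockout and 902, 943 and 1118 CPM in wild-type libraries, and FCER1G, the common Fc receptor chain, at 385, 428 and 464 CPM in knockout and 1143, 1210.4 and 1265 CPM in wild-type libraries. Both were lower in every knockout library. SYK fell by 0.55, BTK by 0.58 and PLCG2 by 0.53. The Src family kinases SRC and FGR rose. SRC stood at 36.1, 42.2 and 47.5 CPM in knockout and 6.98, 8.01 and 10.6 CPM in wild-type libraries and FGR at 95.3, 111 and 115 CPM in knockout and 19.3, 21.7 and 24.9 CPM in wild-type libraries. LYN rose by 0.65.

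Sialic acid enzymes moved in both directions. Of 5 genes for making and activating sialic acid, 3 fell and none rose. They were NANS (-0.52 ± 0.10), GNE (-0.51 ± 0.18) and CMAS (-0.78 ± 0.09); CMAS lies on chromosome 12, where its neighbours had a median of -0.80, close to its own value. Of 11 sialyltransferases 4 rose and 5 fell. ST6GALNAC3 stood at 10.1, 11.3 and 12.8 CPM in knockout and 0, 0.229 and 1.23 CPM in wild-type libraries, and ST6GAL1, which caps N-glycans with the linkage that CD22 binds, changed by -0.65 ± 0.09. Of 5 genes that remove or break down sialic acid, NPL, the lyase that cleaves free sialic acid, rose by 2.26, NEU1, the lysosomal sialidase, by 0.79 and its protective partner CTSA by 0.66, while SIAE and NEU3 fell; the fall of NEU3 was not called without replicate 5 of either group (edgeR adjusted p of up to 0.0699). NEU1 lies on chromosome 6, with a neighbour median of 0.40.

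Genes of the NF-kB pathway, a family of dimeric transcription factors held inactive by inhibitors that they themselves induce, were mostly higher in knockout libraries. Of 14 subunits and kinases 9 rose and 2 fell (median 0.45). REL stood at 103, 105 and 109 CPM in knockout and 23.3, 25.0 and 30.5 CPM in wild-type libraries, and NFKB1, NFKB2 and RELB rose by 1.23, 1.38 and 0.90. The kinase subunit IKBKB and the ubiquitin ligase TRAF6 fell, by 0.45 and 0.87. Of 14 inhibitors and feedback genes 11 rose and none fell (median 0.90). The inhibitor NFKBIA stood at 924, 957 and 1036 CPM in knockout and 364, 398 and 411 CPM in wild-type libraries, and TNFAIP3, the deubiquitinase A20, at 185, 196 and 240.0 CPM in knockout and 58.2, 71.4 and 75.8 CPM in wild-type libraries. Of 16 survival factors and other targets 15 rose and none fell (median 1.30). BIRC3, an inhibitor of apoptosis, stood at 100.2, 109.5 and 132 CPM in knockout and 7.07, 9.96 and 13.7 CPM in wild-type libraries, and TNFAIP6, a hyaluronan-binding protein, at 41.8, 44.5 and 48.8 CPM in knockout and 0.832, 1.65 and 2.86 CPM in wild-type libraries.

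Chemokines and interleukins carried some of the largest rises. All 7 neutrophil-attracting CXC chemokines tested rose at least 2-fold, with a median log2 fold change of 4.95. CXCL8 (interleukin 8) stood at 833, 1852 and 2220.0 CPM in knockout and 73.4, 87.7 and 94.6 CPM in wild-type libraries; the lowest knockout value was that of replicate 2. CXCL1 stood at 117, 148 and 152 CPM in knockout and 3.68, 4.31 and 5.85 CPM in wild-type libraries. CXCL5 stood at 32.4, 39.8 and 45.3 CPM in knockout and 0.409, 0.608 and 2.29 CPM in wild-type libraries. Every knockout library held far more of CXCL1 and CXCL5 than any wild-type library. CXCL1, CXCL2 and CXCL3 are closely similar in sequence and may share reads. The promoters of CXCL1, CXCL5 and NFKBIA are shown as examples. Only promoters that hold the motif below could be picked, so a match in each was set in advance. Each sequence runs from 250 bases before to 50 bases after the RefSeq start (GRCh38.p14). Matches to GGGA and TTCC spaced by NN (any 2 bases), the core of an NF-kB site, are in capitals.
CXCL1 (chr4:73869143-73869442, plus strand): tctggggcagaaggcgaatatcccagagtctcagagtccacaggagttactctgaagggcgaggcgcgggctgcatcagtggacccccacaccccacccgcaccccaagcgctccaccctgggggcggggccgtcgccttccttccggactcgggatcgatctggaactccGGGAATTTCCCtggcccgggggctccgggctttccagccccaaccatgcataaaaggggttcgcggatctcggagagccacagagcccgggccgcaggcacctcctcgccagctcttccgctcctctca
CXCL5 (chr4:73998628-73998927, minus strand): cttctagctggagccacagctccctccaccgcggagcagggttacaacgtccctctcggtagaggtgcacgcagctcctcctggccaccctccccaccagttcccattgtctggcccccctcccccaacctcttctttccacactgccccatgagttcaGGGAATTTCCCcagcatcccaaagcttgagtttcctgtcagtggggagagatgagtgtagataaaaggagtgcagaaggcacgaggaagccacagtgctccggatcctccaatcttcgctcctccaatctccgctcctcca
NFKBIA (chr14:35404700-35404999, minus strand): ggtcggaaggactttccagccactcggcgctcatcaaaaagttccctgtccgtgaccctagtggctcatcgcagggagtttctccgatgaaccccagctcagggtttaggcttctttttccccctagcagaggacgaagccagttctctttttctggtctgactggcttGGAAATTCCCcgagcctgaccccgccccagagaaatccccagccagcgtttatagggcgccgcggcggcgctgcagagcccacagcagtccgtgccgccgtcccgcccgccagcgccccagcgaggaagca
The motif was searched on both strands, so also as GGAA and TCCC spaced by NN, and in CXCL1 and CXCL5 it is matched by overlapping runs in both orientations, 1 base apart. It was found in 5 of the 7 chemokine promoters (71.43%), in 3 of 27 promoters of the inhibitors and targets above (11.11%) and in 155 of 9967 promoters of tested genes (1.555%). A match of letters is a description and does not show a site in use. Among all called genes at least 2-fold higher 20 of 692 promoters held it (2.89%), and among those at least 2-fold lower 15 of 767 (1.956%).

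Of 10 CC chemokines 8 rose and 1 fell. CCL22, a ligand of CCR4, stood at 61.6, 66.0 and 78.8 CPM in knockout and 0.466, 2.29 and 3.28 CPM in wild-type libraries, and CCL2, which attracts monocytes, rose by 2.87 ± 0.12. CCL3, CCL3L3, CCL4 and CCL4L2 rose by 3.07 to 3.90; as near-identical copies they may share reads. CCL23 fell by 2.14. CXCL10, which interferon induces, fell by 1.39. Of 11 interleukins 8 rose and 2 fell. IL1B stood at 2999.5, 3363 and 3576 CPM in knockout and 285, 297 and 339 CPM in wild-type libraries and its antagonist IL1RN changed by 2.69 ± 0.05. IL24 stood at 88.0, 103 and 106 CPM in knockout and 0, 0.664 and 1.35 CPM in wild-type libraries and IL36G at 4.95, 6.83 and 8.80 CPM in knockout and 0, 0 and 0.233 CPM in wild-type libraries. IL23A, on chromosome 12, rose by 5.15, with a neighbour median of -0.14. IL18 and IL16 fell, by 0.76 and 1.19. Of 11 genes of the TNF family and the colony-stimulating factors 6 rose and 3 fell. TNF stood at 46.4, 57.4 and 68.5 CPM in knockout and 6.87, 8.40 and 11.4 CPM in wild-type libraries; its neighbours on chromosome 6 had a median of 0.61. CSF1, the growth factor of macrophages, stood at 95.8, 142 and 151 CPM in knockout and 7.59, 10.3 and 13.3 CPM in wild-type libraries, while its receptor CSF1R fell by 1.08. CSF3 had no count in any wild-type library, which is why its fitted change is not given; its median was 8.63 CPM in knockout libraries. SPP1 (osteopontin) fell by 1.60.

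**Figure D4:**
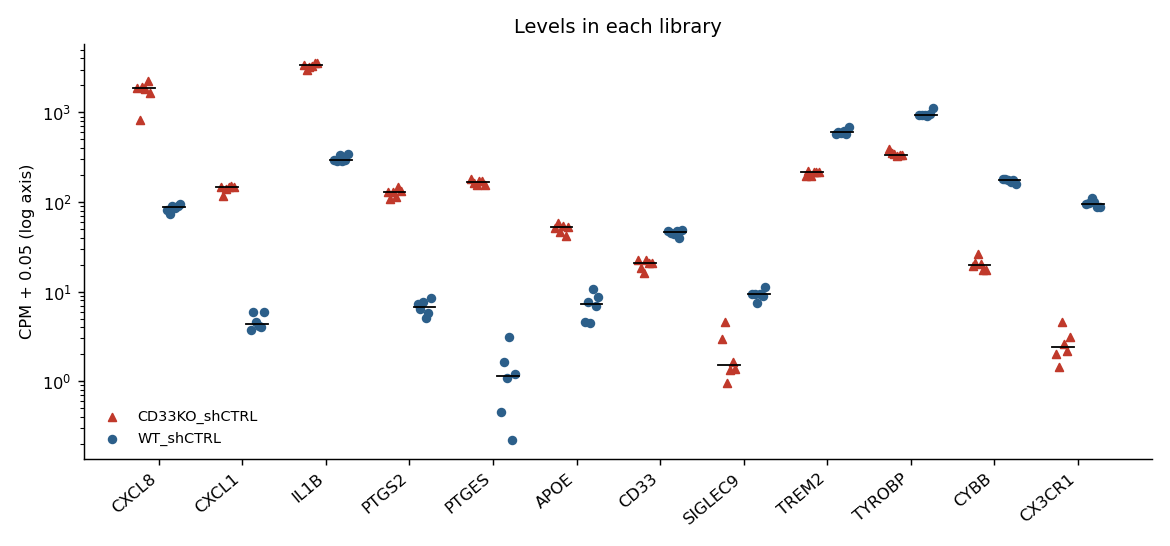
Levels in CPM (log axis, with 0.05 added so that values of 0 can be drawn) of 12 genes in each library; knockout libraries are triangles on the left and wild-type libraries circles on the right of each gene, and bars are medians. CXCL8, CXCL1, IL1B, PTGS2, PTGES and APOE stand higher in knockout and CD33, SIGLEC9, TREM2, TYROBP, CYBB and CX3CR1 stand lower, with no overlap between groups.

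Receptors for chemokines fell more often than they rose. Of 15 chemokine and chemoattractant receptors 9 fell and 4 rose. CX3CR1, the fractalkine receptor of microglia, stood at 1.38, 2.35 and 4.50 CPM in knockout and 86.9, 95.9 and 109.6 CPM in wild-type libraries. CCR2, the monocyte receptor for CCL2, stood at 0, 0 and 1.47 CPM in knockout and 4.90, 5.84 and 9.55 CPM in wild-type libraries. The formyl peptide receptor FPR1 changed by -3.23 ± 0.36. CCR7, which guides cells to lymph nodes, stood at 47.9, 49.9 and 62.5 CPM in knockout and 0, 0.458 and 1.35 CPM in wild-type libraries, and CXCR4 rose by 1.70. Among 26 interleukin and TNF receptors 11 rose and 10 fell. IL1R1 changed by 2.78 ± 0.19 and TNFRSF1B by 1.70 ± 0.05, whereas TNFRSF1A changed by -1.29 ± 0.07 and IL6R by -1.25 ± 0.07.

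Of 15 genes of eicosanoid synthesis 7 rose and 7 fell. PTGES, the inducible prostaglandin E synthase, stood at 154, 167 and 182 CPM in knockout and 0.172, 1.10 and 3.03 CPM in wild-type libraries. PTGS2, the inducible cyclooxygenase, stood at 109, 129.6 and 146 CPM in knockout and 5.05, 6.73 and 8.39 CPM in wild-type libraries, and the prostaglandin receptors PTGIR and PTGER4 rose by 2.46 and 1.52. The constitutive cyclooxygenase PTGS1 fell by 0.25. The 5-lipoxygenase gene ALOX5 stood at 1.71, 4.02 and 4.84 CPM in knockout and 11.9, 14.1 and 21.4 CPM in wild-type libraries. LTC4S fell by 1.36, LTA4H by 1.11 and ALOX5AP by 0.78; LTA4H lies on chromosome 12 with a neighbour median of -0.32. PTGES3, another prostaglandin E synthase on chromosome 12, fell by 0.44 with a neighbour median of -0.14.

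Interferon response genes fell in the control vector pair. Of 43 antiviral effectors 39 fell and 2 rose, with a median of -1.09, against 28.4% of all tested genes. MX1, a GTPase that blocks viral ribonucleoproteins, stood at 0.856, 1.18 and 2.13 CPM in knockout and 10.4, 13.6 and 17.8 CPM in wild-type libraries. IFITM3, which blocks viral entry, stood at 249.5, 281 and 300.2 CPM in knockout and 657, 742 and 810.2 CPM in wild-type libraries. IFI27 stood at 30.3, 35.3 and 44.0 CPM in knockout and 114, 133 and 169 CPM in wild-type libraries. IFIT1 changed by -1.65 ± 0.10 and RSAD2 (viperin) by -2.07 ± 0.13. OAS1, OAS2 and OAS3, sensors of double-stranded RNA, changed by -1.79, -1.33 and -1.36; they sit together on chromosome 12, where neighbours of OAS1 had a median of -0.46. GBP2 rose by 0.35, a call lost when any 1 of 8 libraries was left out (edgeR adjusted p of up to 0.128). Of 6 genes of the ISG15 system 5 fell and none rose, with ISG15 at -0.90. Nucleic acid sensors fell for 6 of 9 and rose for none. STING1, the adaptor of DNA sensing, stood at 33.4, 41.7 and 46.8 CPM in knockout and 151, 158 and 176 CPM in wild-type libraries, and RIGI and TLR7 changed by -1.15 and -2.90.

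Upstream of these genes the interferon receptor IFNGR1 stood at 23.4, 46.6 and 50.8 CPM in knockout and 198, 200.2 and 208 CPM in wild-type libraries, with a neighbour median on chromosome 6 of -0.24. IFNAR1, a subunit of the type I interferon receptor, rose by 0.28. STAT2, a signal transducer of type I interferon, fell by 0.70, IRF5 by 1.10 and IRF7 by 0.43. IRF1 rose by 0.32, and IRF9 was not called (0.03).

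Promoters of 2 effectors that fell are shown, again picked only from those that hold the motif (GRCh38.p14, same window). Matches to GAAA and GAAA spaced by NN, the core of an interferon-stimulated response element, are in capitals.
IFITM3 (chr11:320811-321110, minus strand): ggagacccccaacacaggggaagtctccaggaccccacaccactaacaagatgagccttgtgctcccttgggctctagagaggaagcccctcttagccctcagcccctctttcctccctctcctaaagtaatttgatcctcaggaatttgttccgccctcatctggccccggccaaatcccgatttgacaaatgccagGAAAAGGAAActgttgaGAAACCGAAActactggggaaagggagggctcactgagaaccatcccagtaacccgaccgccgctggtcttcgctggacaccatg
IFI27 (chr14:94110486-94110785, plus strand): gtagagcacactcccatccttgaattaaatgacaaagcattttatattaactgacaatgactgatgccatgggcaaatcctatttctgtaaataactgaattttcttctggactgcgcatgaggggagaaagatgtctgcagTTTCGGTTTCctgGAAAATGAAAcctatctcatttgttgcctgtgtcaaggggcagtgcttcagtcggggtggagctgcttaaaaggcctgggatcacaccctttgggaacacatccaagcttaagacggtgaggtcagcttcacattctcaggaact
Counting both strands (also TTTC and TTTC spaced by NN), 20 of the 33 effector promoters in RefSeq held the motif (60.61%), against 290 of 9967 promoters of tested genes (2.91%). It stood in 37 of 767 promoters of genes that fell at least 2-fold (4.824%) and in 25 of 692 of genes that rose at least 2-fold (3.613%).

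The interferon genes differed between vectors. In the separate libraries that carried the PTPN6 hairpin, 28 of the same 43 effectors were higher and 8 lower in CD33KO_shPTPN6 than in WT_shPTPN6 (56.5% of all tested genes were called), with a median of 0.38, and the test of the difference itself (the interaction, adjusted over all genes) was called for 39 of 43, against 28.4% of all tested genes. For the neutrophil-attracting chemokines the median was 2.54 with the hairpin, where 5 of 7 rose, and the difference was called for all 7. All 8 Siglecs also fell with the hairpin, and the difference was called for 2 of them (median -1.96). Lists other than these also differed between vectors. Against 28.4% of all tested genes, the interaction was called for 15 of 15 mitochondrial genome transcripts and 18 of 21 mitosis genes. It was called for 13 of 19 metalloproteinases and inhibitors, whose median was 1.01 with the control vector and -0.02 with the hairpin. It was called for 3 of 14 inflammasome genes and 5 of 17 kinases and activating adaptors. Of the 7428 genes called with the control vector 6225 (83.8%) had the same sign with the hairpin.

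**Figure D5:**
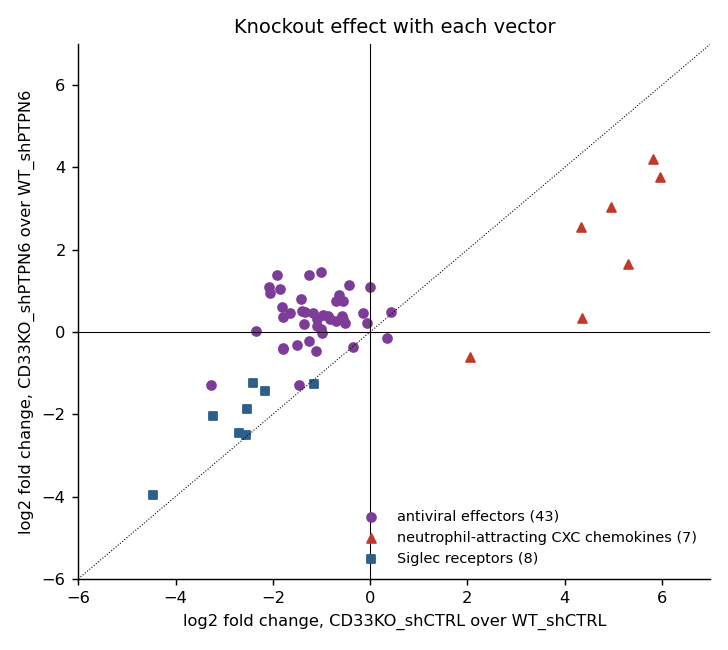
Log2 fold change of knockout over wild type with the PTPN6 hairpin (vertical) against that with the control vector (horizontal) for antiviral effectors (circles), neutrophil-attracting CXC chemokines (triangles) and Siglec receptors (squares); the groups on the 2 axes share no library and the diagonal marks equal effects. Siglecs lie below 0 on both axes, whereas most antiviral effectors lie below 0 with the control vector and above 0 with the hairpin.

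Pattern recognition genes were split. Of 21 Toll-like and related receptors and adaptors 5 rose and 9 fell. CD14, the lipopolysaccharide co-receptor, stood at 519, 620.2 and 663 CPM in knockout and 235, 280.2 and 314 CPM in wild-type libraries, while LY96 (MD-2), the subunit of TLR4 that binds lipopolysaccharide, stood at 2.93, 5.09 and 7.48 CPM in knockout and 23.5, 25.3 and 26.9 CPM in wild-type libraries. RIPK2 and IRAK2 rose by 1.88 and 1.98. NOD2 fell by 1.65. TLR4 had a change of 0.25 ± 0.17 that was not called. Of 14 inflammasome genes 6 fell and 1 rose. NLRP1 fell by 2.58 and PYCARD, the ASC adaptor, by 0.67; NLRP3 rose by 0.21, a call lost when any 1 of 7 libraries was left out (edgeR adjusted p of up to 0.136), and CASP1 and GSDMD were not called (-0.09 and 0.26).

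Among genes at risk loci for Alzheimer's disease, falls outnumbered rises. Of 8 microglial receptor and lipid genes 4 fell and 2 rose, and of 12 endocytosis and APP handling genes 7 fell and 3 rose. TREM2, the lipid-sensing receptor that signals through TYROBP, stood at 195, 216 and 224 CPM in knockout and 572, 601 and 685 CPM in wild-type libraries; it lies on chromosome 6, where its neighbours had a median of 0.19. MS4A4A and MS4A6A, tetraspan proteins linked to soluble TREM2, changed by -3.03 ± 0.45 and -1.63 ± 0.30. BIN1 fell by 3.81 and SORL1 by 3.46. Progranulin (GRN) stood at 419, 491 and 499 CPM in knockout and 930.0, 1029.7 and 1093 CPM in wild-type libraries. APOE stood at 41.5, 52.3 and 58.7 CPM in knockout and 4.37, 7.27 and 10.6 CPM in wild-type libraries and the lipid exporter ABCA1 rose by 1.92. ADAM10, the main alpha-secretase, fell by 0.32.

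Uptake genes moved both ways. Of 11 Fc and complement receptor genes 7 fell and 2 rose. FCGR1A, the high-affinity IgG receptor, stood at 0, 0.491 and 0.978 CPM in knockout and 8.33, 11.1 and 12.3 CPM in wild-type libraries; it has a close copy, FCGR1BP, with 1 count summed over the knockout and 166 over the wild-type libraries. ITGAX (CD11c) rose by 1.25, and ITGAM (CD11b) was not called (-0.07 ± 0.07). Of 12 scavenger receptors 6 rose and 6 fell. CD36 stood at 327, 372 and 381 CPM in knockout and 109, 111 and 123 CPM in wild-type libraries. CD163, the haemoglobin scavenger, stood at 0.798, 2.02 and 4.95 CPM in knockout and 16.0, 21.9 and 29.5 CPM in wild-type libraries, with a neighbour median on chromosome 12 of -0.46. Of 15 receptors and bridges for apoptotic cells 8 fell and 5 rose. AXL stood at 0.532, 1.30 and 1.96 CPM in knockout and 16.5, 19.7 and 23.9 CPM in wild-type libraries and its ligand GAS6 fell by 1.34. TIMD4, a phosphatidylserine receptor, fell by 4.13, while the integrin subunit ITGB3 rose by 2.10. MERTK was not called (0.20 ± 0.12). Of 18 engulfment genes 12 fell and 4 rose. ELMO1, the partner of DOCK proteins in Rac activation, changed by -2.28 ± 0.22.

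The NADPH oxidase of phagocytes makes superoxide, and the transcript of its catalytic subunit fell. CYBB (gp91phox) stood at 17.6, 19.6 and 26.1 CPM in knockout and 159.6, 176 and 180.5 CPM in wild-type libraries, and NCF4 (p40phox) changed by -1.69 ± 0.07, whereas CYBA (p22phox) was not called (-0.01 ± 0.13). Over the 10 subunits 6 fell and 1 rose. S100A8 and S100A9, calcium-binding proteins that promote oxidase assembly, rose by 1.47 and 1.27. Among 24 NRF2, thiol and detoxifying enzymes 12 rose and 8 fell. The cystine transporter SLC7A11 stood at 199, 206 and 228 CPM in knockout and 26.0, 31.6 and 37.4 CPM in wild-type libraries, and GCLC and GCLM, the subunits of the first enzyme of glutathione synthesis, rose by 1.34 and 1.02. HMOX1 fell by 0.34 and GPX1 by 1.02. Ferritin rose, with FTH1 at 1.93 and FTL at 0.99. HFE and STEAP3 fell by 2.66 and 2.76; HFE lies on chromosome 6, where its neighbours had a median of 0.86.

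Lysosomal genes were split. V-ATPase subunits rose for 10 of 15 and fell for 1, with a median of 0.19. Of 29 hydrolases and membrane proteins 10 rose and 12 fell, and of 16 cathepsins and their inhibitors 7 rose and 7 fell. CTSB rose by 1.02 and SMPD1, acid sphingomyelinase, by 1.25. The protease inhibitors CST3 (cystatin C) and CSTA fell by 1.44 and 1.49, while CSTB rose by 0.84.

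Lipid genes moved both ways. Of 22 sterol synthesis and uptake genes 13 fell and 4 rose (median -0.46). SC5D, a sterol desaturase, fell by 1.75. MVD and SQLE rose, by 0.62 and 0.27. Of 22 genes of fatty acid synthesis and storage 12 rose and 7 fell. PLIN2, the lipid droplet coat protein, stood at 2334, 2378 and 2472 CPM in knockout and 338, 369 and 390.1 CPM in wild-type libraries, and the carrier FABP4 at 287, 354 and 368 CPM in knockout and 41.0, 46.4 and 53.7 CPM in wild-type libraries. LPL rose by 2.68 and DGAT2 by 1.87. ACACA, acetyl-CoA carboxylase, fell by 1.53 and the desaturase FADS2 by 2.76. All 22 genes of fatty acid synthesis and storage had the same sign with the hairpin. The size of the effect differed between vectors for 16 of 22 by the interaction test, against 28.4% of all tested genes.

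Antigen presentation was uneven. HLA-DRA stood at 28.4, 31.8 and 77.4 CPM in knockout and 7.20, 8.38 and 17.7 CPM in wild-type libraries and HLA-DQA1 rose by 2.90, whereas HLA-DRB1 stood at 15.4, 20.3 and 27.9 CPM in knockout and 76.9, 81.2 and 84.3 CPM in wild-type libraries. The invariant chain CD74 stood at 125, 142 and 170.4 CPM in knockout and 293, 329 and 341 CPM in wild-type libraries. HLA class II genes are polymorphic, lie on the short arm of chromosome 6 (neighbour median of HLA-DRA 0.43) and share sequence, so their separate values are uncertain. CD80, a co-stimulator of T cells, stood at 7.33, 9.97 and 16.2 CPM in knockout and 0, 0.321 and 0.517 CPM in wild-type libraries, and CD274 (PD-L1) rose by 1.64. Among class I genes HLA-E rose by 0.92 with a neighbour median of 0.68, and B2M, its light chain on chromosome 15, fell by 0.36. The complement genes C3 and C2 fell by 2.31 and 1.47.

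Markers of myeloid identity moved both ways. Of 12 monocyte markers 7 fell and 4 rose. CD93 stood at 0, 0.888 and 2.64 CPM in knockout and 30.6, 31.4 and 35.3 CPM in wild-type libraries and LYZ (lysozyme) at 2.14, 3.09 and 5.40 CPM in knockout and 23.4, 25.0 and 31.7 CPM in wild-type libraries, while CD14, S100A8 and S100A9, given above, rose. Of 10 progenitor and granule genes 8 fell and 2 rose; RNASE2 stood at 7.79, 9.78 and 11.7 CPM in knockout and 71.7, 76.9 and 96.0 CPM in wild-type libraries, CTSG fell by 2.79, and SRGN, the granule proteoglycan serglycin, rose by 1.17. Of 27 macrophage and lipid-associated macrophage markers 14 rose and 7 fell. The largest fall among them was that of CD163, given above (-3.33). Their median was 0.81 with the control vector and -0.12 with the hairpin. The difference between vectors was called for 21 of 27, against 28.4% of all tested genes. CHIT1, a chitinase of lipid-laden macrophages, stood at 19.8, 23.4 and 24.4 CPM in knockout and 0.450, 0.619 and 1.86 CPM in wild-type libraries. Of the lineage transcription factors CEBPB rose by 2.49, KLF4 fell by 1.98, IRF8 fell by 0.70 and SPI1 (PU.1) was not called (-0.17 ± 0.08), though it was when any 1 of 4 libraries was left out (edgeR adjusted p as low as 0.00381). Of the 12 macrophage identity genes 7, CD33 among them, fell and 3 rose, as given above. The part of that shift in these changes was not tested. In bulk RNA, fewer cells of a kind and less RNA per cell cannot be told apart.

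Early response and growth factor genes mostly rose. Of 21 early response factors 16 rose and 2 fell. JUN changed by 1.83 ± 0.06 and NR4A3, an orphan nuclear receptor, by 3.27 ± 0.17, while MYC fell by 0.76. Of 17 ERK feedback genes 12 rose and 2 fell. The phosphatases DUSP2, DUSP5 and DUSP1 rose by 2.74, 2.09 and 1.65 and SPRY1 by 2.40. Of 17 growth factors 15 rose and 1 fell. INHBA, the activin A subunit, stood at 722, 758 and 838 CPM in knockout and 60.1, 70.0 and 70.8 CPM in wild-type libraries, GDF15, a stress cytokine, at 1129, 1219.7 and 1331 CPM in knockout and 75.2, 79.1 and 82.3 CPM in wild-type libraries and BMP2 at 161, 208 and 255 CPM in knockout and 5.05, 7.24 and 8.55 CPM in wild-type libraries. VEGFA rose by 1.80. PDGFA fell by 0.49.

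Matrix genes rose more often than they fell. Of 19 metalloproteinases and inhibitors 13 rose and 4 fell. MMP10 stood at 33.0, 41.0 and 58.2 CPM in knockout and 0.932, 1.93 and 3.12 CPM in wild-type libraries and MMP3, another stromelysin, rose by 5.35. MMP9, a gelatinase, rose by 1.29 and its inhibitor TIMP1 by 1.66. MMP13 fell by 2.28. Fibronectin (FN1) stood at 159, 216 and 229.9 CPM in knockout and 24.1, 32.2 and 36.1 CPM in wild-type libraries, and TGFBI fell by 2.38. Of 23 integrins and cadherins 14 rose and 5 fell; ITGB8, which activates TGF-beta, stood at 37.2, 48.3 and 51.5 CPM in knockout and 0.832, 2.08 and 3.03 CPM in wild-type libraries. In the plasminogen and coagulation list TFPI2 rose by 6.46, whereas ANXA2 and S100A10, the annexin complex that binds plasminogen, fell by 1.62 and 2.71. Summed markers of fibroblasts and endothelium were also higher, at 464 to 522 CPM in knockout and 219.7 to 249 CPM in wild-type libraries. PECAM1, the adhesion receptor given above, held most of that sum in both groups. Of 11 tested markers 5 rose, 1 fell and 5 were not called, COL1A1 among them (-0.49 ± 0.42). Epithelial and HEK-293 markers summed to 112 to 151 CPM in knockout and 64.9 to 85.5 CPM in wild-type libraries. Of the 5 tested, 2 cadherins rose and held most of the knockout sum. Another 2 fell, INA among them (-5.84), and 1 was not called, with a median over the 5 of -0.59. Markers of T and NK lymphocytes summed to 621 to 711 CPM in knockout and 628 to 757 CPM in wild-type libraries. GNLY (granulysin) and TRAC (the T cell receptor alpha constant region) held nearly all of it and changed in opposite directions. GNLY stood at 509, 552 and 587 CPM in knockout and 293, 353 and 395 CPM in wild-type libraries, and TRAC at 98.6, 105 and 111 CPM in knockout and 295, 308 and 340.0 CPM in wild-type libraries. Markers of B lymphocytes summed to 35.6 to 213 CPM in knockout and 25.5 to 68.8 CPM in wild-type libraries, and those of erythroid cells, megakaryocytes and mast cells to 13.2 to 31.4 CPM in knockout and 6.44 to 16.3 CPM in wild-type libraries. No library of either group held a count of the erythroid factors KLF1 and GATA1, and the mast cell genes CPA3 and MS4A2 and LIN28B were at 0 in wild-type libraries. The part of these cell types in the matrix genes and in the other groups was not tested.

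Housekeeping programmes shifted by smaller amounts. Of 48 ribosomal protein genes 43 fell and 1 rose, with a median of -0.45. RPSA fell by 0.78 and RPS12 by 0.94; RPLP0 and RPL6, on chromosome 12, fell by 0.96 and 0.83 with neighbour medians of -0.41 and -0.46. Of 43 nuclear genes of oxidative phosphorylation 24 fell and 5 rose (median -0.17). Of 18 heat shock genes 16 rose and 1 fell; HSPH1 rose by 0.95 and STIP1 by 1.16. In glycolysis and hypoxia 14 of 29 rose and 10 fell. The glucose transporter SLC2A3 stood at 2.66, 3.55 and 7.33 CPM in knockout and 27.5, 29.8 and 33.1 CPM in wild-type libraries, with a neighbour median on chromosome 12 of -0.47. GAPDH fell by 0.74, beside a neighbour median of -0.60. The unfolded protein response rose for 6 and fell for 6 of 19 genes.

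Mitosis genes mostly fell. Of 21 mitosis genes 15 fell and 1 rose, with a median of -0.30. PLK1 fell by 0.63 and CCNB1 by 0.43; CDC20 rose by 0.76. Of 22 replication genes 3 rose and 5 fell, and MCM5 was not called (-0.06 ± 0.08). Cyclin D1 (CCND1) rose by 1.19 and the inhibitor CDKN1B, on chromosome 12, fell by 0.93 beside a neighbour median of -0.53.

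Among genes with a symbol, the 10 largest rises and 10 largest falls at 5 CPM or more were near on-off differences between the lines. HSPG2, the gene of perlecan, a basement membrane proteoglycan (chromosome 1, 21822245 to 21937297, minus strand), stood at 9355, 11721 and 15335 CPM in knockout and 16.9, 19.3 and 46.6 CPM in wild-type libraries, a log2 fold change of 8.98 ± 0.23 SE. The growth factor gene NRG4 stood at 1528, 1813 and 2396 CPM in knockout and 0, 0.883 and 5.89 CPM in wild-type libraries and overlaps FBXO22 on the other strand, so reads may be shared if strand was not used in counting. CDH13, an anchored cadherin, stood at 959.7, 1199 and 1585 CPM in knockout and 0.409, 0.847 and 3.87 CPM in wild-type libraries, and RPS26P52, a ribosomal protein pseudogene whose reads may come from copies, at 1529, 1825 and 1928 CPM in knockout and 0.172, 0.650 and 4.21 CPM in wild-type libraries. For all 4 of these the highest wild-type value was that of WT_shCTRL replicate 4, at 46.6, 5.89, 3.87 and 4.21 CPM in that order; in the other 5 wild-type libraries the highest values were 20.5, 1.35, 0.900 and 0.932 CPM. Without that library the log2 fold changes were 9.33, 11.30, 10.69 and 11.49.

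LINC01287, ERVW-1 (syncytin-1), DRD1 (a dopamine receptor) and CHRNA1 (an acetylcholine receptor subunit) had no count in any wild-type library. Against a floor of 3 counts summed over the group they were at least 238-fold, 121-fold, 109.7-fold and 105-fold higher in knockout libraries. ANKRD1, a cardiac ankyrin repeat protein, stood at 90.9, 106 and 116 CPM in knockout and 0, 0.270 and 0.624 CPM in wild-type libraries, and TAAR8 at 17.4, 22.5 and 27.4 CPM in knockout and 0, 0 and 0.168 CPM in wild-type libraries.

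KRT9, a keratin of palm and sole skin, had no count in any knockout library and was at least 55.7-fold lower there by the same floor. DPEP1, a membrane dipeptidase, stood at 0, 0.878 and 1.06 CPM in knockout and 99.7, 102 and 111 CPM in wild-type libraries. SAA1, an acute phase protein, stood at 0, 0.486 and 2.93 CPM in knockout and 84.6, 92.3 and 95.6 CPM in wild-type libraries, and SLFN12 at 0, 0 and 0.450 CPM in knockout and 9.31, 11.2 and 13.5 CPM in wild-type libraries. CLIC5, BBOX1, HTRA1, FCGBP, INA and LINC01844 reached at most 3.72 CPM in any knockout library and at least 12.1 CPM in every wild-type library. CLIC5 lies on chromosome 6, where its neighbours had a median of 0.33.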

How the data were processed

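Total RNA (100 ng) went into 3' end libraries of polyadenylated transcripts, and 6 libraries of CD33KO_shCTRL were compared with 6 of WT_shCTRL; CD33KO_shPTPN6 replicate 2, of the 24 samples in 4 groups, was not analysed here. The authors deposited whole-number read counts for each gene in each library, not normalized. Named in the submitters' processing notes are hg38, DESeq2 1.26.0, R 3.6.1, Subread 2.0.0 with featureCounts, STAR 2.7.3a and bcl2fastq, with no roles or parameters. Strand setting, annotation release and handling of duplicate reads are not given in the sources used here. Unstranded counting would add reads of overlapping genes to a gene, and kept duplicates would widen the spread of abundant genes.

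Of 60617 gene identifiers 42335 had a symbol and 34700 at least 1 count; positions are those of GENCODE release 29 (GRCh38). Counts of all 23 libraries entered 1 edgeR 4.0.16 fit (R 4.3.3, limma 3.58.1) with a term per group, genes kept by filterByExpr by group, TMM scaling and robust quasi-likelihood tests. All groups were fitted so that they shared 1 estimate of the spread. P-values were Benjamini-Hochberg adjusted over the 13098 genes tested, at a threshold of 0.05, and the SE is the log2 fold change divided by the square root of its F statistic. CD33 and PTPN6 were also tested on log2 CPM by exact permutation, two-sided. The interaction is the knockout effect with the hairpin minus that with control vector. Gene lists carry no test of their own.

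The comparison, the gene lists and their members were chosen with earlier results of these data known. Named are CD33, PTPN6, the 10 largest called rises and falls at 5 CPM or more with groups that do not overlap, up to 2 called rises and 2 called falls with the smallest adjusted p in each list, and other list members given to account for their list; some members are not reported here. Bounds on folds against a group at 0 use 3 counts summed over the group. Promoters are RefSeq's (GRCh38.p14), found for 792 of 1048 tested list members. Within a group, every pair of libraries differed by more than sampling noise. The alternatives were DESeq2 size factors, upper-quartile scaling, DESeq2 1.42.0, no filter, a filter of 20 counts in 6 libraries, a fit of the 12 libraries alone, thinning to the smallest library, the replicate number as a block and leaving out each library; 2 more were chosen after seeing the data.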

Additional observations from a re-analysis of the deposited data

Results flagged for a closer look

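For 52 of 502 groups of 6 values (10.4%), 1 library stood apart from the other 5. Groups were library totals, mitochondrial and ribosomal protein shares and the named genes, in knockout and in wild-type libraries. The gap's share of the whole range passed Dixon's critical value, which normally distributed values pass in about 1 of 20 groups. Groups at 0 in 5 libraries and above 0 in 1 pass whatever the value, so the 10.4% cannot be set against that rate. The library total of CD33KO_shCTRL replicate 5 was 1 of the 52, at 3749258 counts, against at most 2331569 in the other knockout libraries. The other libraries and genes are given with their level in CPM. CD33KO_shCTRL replicate 1 was the highest for CCR2 (1.47), GCLC (65.0), MMP10 (58.2), SAA1 (2.93) and TNFAIP3 (240.0) and the lowest for TLR4 (6.84). In CPM, replicate 2 of CD33KO_shCTRL was the highest for CDC20 (532), CTSG (4.13), LINC01287 (38.5), SIGLEC11 (4.58) and SLC2A3 (7.33) and the lowest for CSF1 (95.8), CXCL1 (117) and IFNGR1 (23.4). CD33KO_shCTRL replicate 3 was the highest for CYBB (26.1), HLA-DRA (77.4), SLFN12 (0.450) and TIMD4 (7.20) and the lowest for ELMO1 (0.450). In CPM, replicate 6 of CD33KO_shCTRL was the highest for CCR7 (62.5), FCGR1BP (0.440) and LILRB2 (0.440) and the lowest for GRN (419). WT_shCTRL replicate 1 was the highest for SIGLEC14 (5.93) and the lowest for DUSP1 (19.0025) and NANS (32.1). In CPM, replicate 2 of WT_shCTRL was the highest for CD93 (35.3). WT_shCTRL replicate 3 was the highest for CCL4 (23.1). In CPM, replicate 4 of WT_shCTRL was the highest for CDH13 (3.87), HLA-DQA1 (1.35), HLA-DRA (17.7), HSPG2 (46.6), NRG4 (5.89), RPS26P52 (4.21) and TAAR8 (0.168) and the lowest for LTA4H (112), NFKBIA (364) and SAA1 (84.6). WT_shCTRL replicate 5 was the highest for NEU3 (14.1). In CPM, replicate 6 of WT_shCTRL was the highest for CCR2 (9.55), CHIT1 (1.86), GAPDH (2154), IL23A (9.55), IL36G (0.233), ISG15 (421), LTC4S (9.09), TIMP1 (535), TREM2 (685) and TYROBP (1118) and the lowest for PDGFA (679) and RELB (65.5).

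WT_shCTRL replicates 6 and 4 held 12 and 10 of these values. In WT_shCTRL replicate 4 the genes that were high in knockout and almost absent from wild type carried a small level of like proportion: its level above the median of the other 5 wild-type libraries was 0.24% of the knockout median for HSPG2, 0.296% of the knockout median for NRG4, 0.253% of the knockout median for CDH13 and 0.196% of the knockout median for RPS26P52. These 4 genes were chosen after their values were seen, and the source of these counts was not tested.

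The knockout effect differed between vectors by the interaction test for some named genes. CD33 had a log2 fold change of -1.91 with the hairpin and -1.16 with the control vector, a difference of -0.75 (edgeR adjusted p = 3.32e-05). ANKRD1 had a log2 fold change of 5.38 with the hairpin and 8.28 with the control vector, a difference of -2.90 (edgeR adjusted p = 7.79e-08). HTRA1 had a log2 fold change of -2.09 with the hairpin and -6.12 with the control vector, a difference of 4.03 (edgeR adjusted p = 2.02e-08). FCGBP had a log2 fold change of -1.15 with the hairpin and -5.99 with the control vector, a difference of 4.84 (edgeR adjusted p = 6.52e-16). LINC01844 had a log2 fold change of -2.05 with the hairpin and -5.38 with the control vector, a difference of 3.33 (edgeR adjusted p = 9.97e-06). By the same test the difference was called for 39 of 43 antiviral effectors, for 7 of 7 neutrophil-attracting CXC chemokines and for 2 of 8 Siglec receptors, against 28.4% of all tested genes.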

How the results depend on the processing

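Under the 22 alternatives, 3138 to 3958 genes were higher (3711 in the fit reported) and 3137 to 4316 lower (3717). Among these, 1 chosen after seeing the data was not a new fit. It left the genes of chromosomes 6 and 12 out of the counts of the fit reported, and it gave the 3137 lower. Without a filter on low counts, 1854 genes were at least 2-fold higher and 1635 at least 2-fold lower, against 1018 and 1037; every other alternative left these counts within 1.5 times. Among the gene lists, 6 to 8 Siglecs and 35 to 40 antiviral effectors fell, and all 7 neutrophil-attracting CXC chemokines rose under every alternative. A member without an adjusted p under an alternative is missing from its count. SIGLEC7 was the only Siglec that lost its call in a fit that gave it an adjusted p. The count of 35 effectors came from leaving out the genes of chromosomes 6 and 12. CD33 stayed between -1.22 and -1.11. PTPN6 ran from -0.30 to -0.20 when 1 library was left out (edgeR adjusted p of 0.00865 to 0.0953). It was not called after thinning to the smallest library (-0.24, adjusted p = 0.0743), nor without CD33KO_shCTRL replicate 2 and WT_shCTRL replicate 4 together (-0.23, adjusted p = 0.0635; chosen after seeing the data). Of 248 named genes 242 kept their call under every alternative fit that gave them an adjusted p, and no sign turned. A gene that a fit did not test was not compared there. The others were GBP2, NEU3, NLRP3, PTPN6, SIGLEC7 and SPI1. The causes were not tested. Same-numbered libraries did not deviate together: the correlations ran from -0.04 to 0.03, and 1 of 6 libraries was nearest to its own number. With the number as a replicate block, genes higher and genes lower numbered 3683 and 3679, PTPN6 was at -0.23 (adjusted p = 0.0397), and no call was lost or turned among the named genes. Depth limits genes with few counts, most of all in the knockout libraries, which were shallower. The labels tie neither genotype to more than 1 line, so line and knockout cannot be told apart under any alternative.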
